A study of Mus musculus with 2 samples.

Results

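The receptors described here are the genes of the neurotrophin and GDNF (glial cell line-derived neurotrophic factor) receptor families, 8 of the 21887 protein-coding genes in the annotation used. They were chosen by name and are Ngfr, Ntrk2, Ntrk3, Gfra1, Gfra2, Gfra3, Gfra4 and Ret. For each, the H3K27me3 peaks that overlapped the annotated gene or 10 kb on either side of it were taken from the deposited list, and 4 of its 6018 peaks did so. H3K27me3, trimethylation of histone H3 at lysine 27, is the mark of the Polycomb repressive complex. Its positions come from ChIP-seq, the sequencing of DNA recovered with an antibody to the mark, in freshly dissected sciatic nerve. The animals were C57/BL6 males at 8 weeks of age, and no genotype or treatment is labelled. The series has 1 ChIP library and 1 input library, made from chromatin saved as a 10% aliquot, and the number of animals pooled is not stated. The nerve holds Schwann cells, fibroblasts, vessel and immune cells and the axons, but not the cell bodies, of distant neurons, and it was not sorted. The mark in few cells and a weak mark in many cells therefore cannot be told apart. There were no replicates, so every value describes 1 nerve preparation, no p-values are given, and intervals cover counting error only.

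Neurotrophins act through Trk receptor tyrosine kinases, each with its preferred ligand, and through p75NTR, which binds all of them. Ligands of the GDNF family bind a GFRα co-receptor held at the membrane by a lipid anchor, and the complex engages the shared transmembrane kinase RET. In peripheral nerve these pathways are known for the survival and growth of sensory, sympathetic and motor axons, and p75NTR is known as a marker of immature, non-myelinating and injury-response Schwann cells.

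Of the receptor genes, 3 had a peak and 5 had none (37.5%, exact 95% Clopper-Pearson interval 8.52 to 75.5). Of all protein-coding genes, 13.7% had a peak in the same kind of window. Long genes meet a peak more often, and the mean share over genes within 1.5-fold of each receptor gene's length was 19.5%. Both shares lay inside the interval of the receptors, so their count was not distinguishable from either. The 3 genes with a peak were Ngfr with 20 reads, Ret with 20 reads and Gfra3 with 15 reads, where reads are the authors' peak scores divided by their common step. All of their peaks touched the annotated gene itself. With 20 reads or more counted, Ngfr and Ret passed, 2 of 8, against 8.26% of all protein-coding genes. Both stood exactly at this limit, Ngfr only as the sum of 2 peaks of 10 reads each. No interval was computed for this count, so it is not read as an excess. Over all 2988 protein-coding genes with a peak, the median was 25 reads and the quartiles were 13 and 63, so the receptor genes lay in the lower and middle part of that range.

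**Figure D1:**
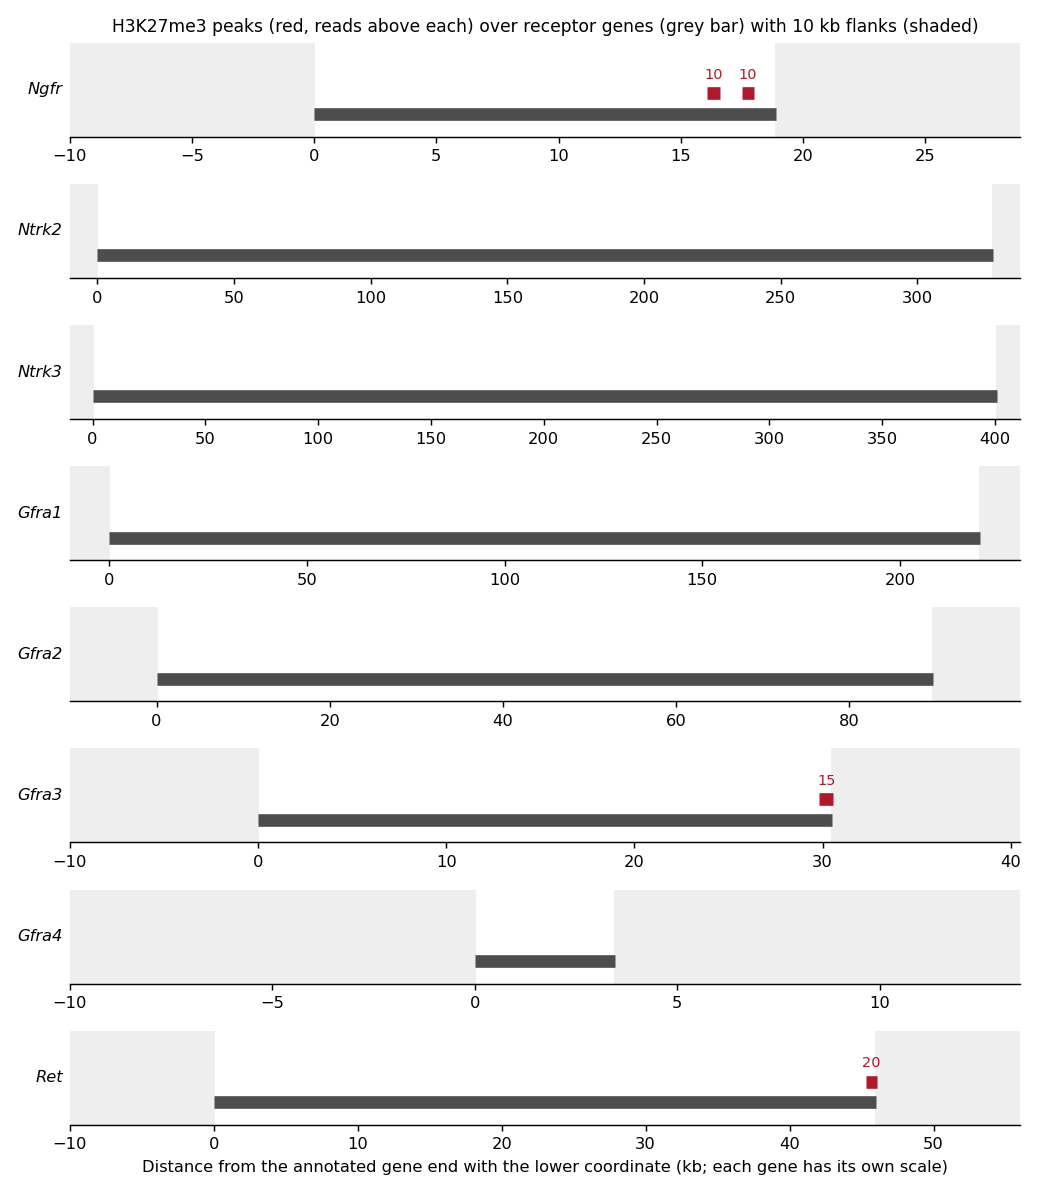
Peaks of H3K27me3 along the receptor genes. The x axis of each row is the distance in kb from the annotated gene end with the lower coordinate, the grey bar is the gene, shading marks the 10 kb flanks, and red blocks are peaks with their reads above them. Ngfr, Gfra3 and Ret had peaks of 10 to 20 reads near the gene end with the higher coordinate, and the other genes had none.

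Promoter sequence was examined because Polycomb is known to favour CpG-rich promoters in mammals. Whether it bears on these peaks was not tested. RefSeq (GRCm38.p6, the same build as mm10) gave promoter windows for 4 of the receptor genes. Shown are the 250 bases before the start site of the gene with a nearby peak (Ngfr), of a gene with equally many CpG in its window and no peak (Ntrk2), and of a CpG-poor gene with no peak (Gfra4, the start at the end of the annotated gene). They run 5′ to 3′ on the gene's strand, with every CpG in capitals.
Ngfr, chr11:95587699-95587948, minus strand: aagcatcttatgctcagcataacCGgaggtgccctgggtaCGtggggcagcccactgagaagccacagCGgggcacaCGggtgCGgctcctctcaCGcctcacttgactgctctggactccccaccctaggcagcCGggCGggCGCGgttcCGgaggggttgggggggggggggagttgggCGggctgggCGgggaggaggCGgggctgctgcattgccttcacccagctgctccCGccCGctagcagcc
Ntrk2, chr13:58806319-58806568, plus strand: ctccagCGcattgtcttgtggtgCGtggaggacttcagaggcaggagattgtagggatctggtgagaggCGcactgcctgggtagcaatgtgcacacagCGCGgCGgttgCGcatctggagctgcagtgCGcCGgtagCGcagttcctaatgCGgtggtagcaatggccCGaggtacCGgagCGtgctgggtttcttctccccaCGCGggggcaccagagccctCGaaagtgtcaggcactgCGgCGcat
Gfra4, chr2:131043089-131043338, minus strand: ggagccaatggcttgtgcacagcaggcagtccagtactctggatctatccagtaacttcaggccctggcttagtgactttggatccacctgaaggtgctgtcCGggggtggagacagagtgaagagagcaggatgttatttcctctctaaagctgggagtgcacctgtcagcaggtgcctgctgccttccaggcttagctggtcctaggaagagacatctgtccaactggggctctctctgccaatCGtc

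Ngfr encodes p75NTR, a member of the tumour necrosis factor receptor superfamily. The gene (Gene ID 18053, chr11:95568818-95587698, minus strand) is 18.9 kb long and held 2 peaks, both inside it and 907 bp apart. The first, chr11:95586319-95586818, began 880 bp downstream of the annotated start site, and the second, chr11:95584912-95585411, began 2287 bp downstream of it. Each was 500 bp wide, the shortest width in the list, and each held 10 reads, the fewest of any listed peak (exact 95% Poisson interval 4.80 to 18.4). Such peaks were common, since 24.8% of all peaks held 10 reads. Together they gave Ngfr 20 reads (12.2 to 30.9). No other annotated gene lay within 10 kb of these peaks, nor within 50 kb of Ngfr, so they are shared with no neighbour. Neither peak passed when only peaks at or above the median score, or of at least 20 reads, were counted.

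Ntrk2 encodes TrkB, the receptor of brain-derived neurotrophic factor (BDNF) and neurotrophin-4. The gene (Gene ID 18212, chr13:58806472-59133970, plus strand) is 327 kb long and had no peak in it or its flanks. The nearest peak lay 353 kb away and held 10 reads. Ntrk3 encodes TrkC, the receptor of neurotrophin-3, and spans 401 kb (Gene ID 18213, chr7:78179986-78581034). It too had no peak, the nearest being a peak of 10 reads at 274 kb. Of the 655 protein-coding genes within 1.5-fold of the length of Ntrk2, 29.5% had a peak in the same window, and of the 512 near the length of Ntrk3, 34.2% did.

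Among the co-receptors of the GDNF family, the mark was listed at Gfra3 only. Gfra3 encodes GFRα3, the artemin co-receptor. Its gene (Gene ID 14587, chr18:34689898-34720387, 30.5 kb) carried 1 peak of 750 bp and 15 reads (8.40 to 24.7). This peak, chr18:34719725-34720474, straddled an annotated end of the gene, with 663 bases inside and 87 beyond it. By its reads it stood near the middle of the list, where 53.2% of peaks held fewer and 43.5% more.

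Gfra1, Gfra2 and Gfra4 had no peak in their windows. Gfra1 encodes GFRα1, the co-receptor of GDNF (Gene ID 14585, chr19:58235581-58455946, minus strand, 220 kb). Its nearest peak lay 706 kb away, the farthest among the receptor genes. Gfra2 encodes GFRα2, the neurturin co-receptor (Gene ID 14586, chr14:70890107-70979840, 89.7 kb), with its nearest peak at 246 kb. The share of genes of like length with a peak was 24.5% for Gfra1, 15.5% for Gfra2 and 14.7% for Gfra4. For the receptor genes with a peak it was 11.5% for Ngfr, 12.2% for Gfra3 and 13.9% for Ret.

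Gfra4, which encodes the persephin co-receptor GFRα4, is the shortest of the receptor genes at 3.46 kb (Gene ID 14588, chr2:131039632-131043088, minus strand). It missed the 10 kb limit narrowly, with a peak of 1139 bp and 23 reads 11365 bp from the gene. That peak, chr2:131054453-131055591, lay inside the neighbouring metalloprotease gene Adam33. No receptor gene had a peak in the flanks and not in the gene, so the count of genes with a peak was 3 with flanks of 0, 2, 5 or 10 kb.

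Ret encodes the kinase through which all GFRα co-receptors signal. The gene (Gene ID 19713, chr6:118151748-118197744, 46.0 kb) carried 1 peak of 773 bp and 20 reads (12.2 to 30.9). The peak, chr6:118197039-118197811, straddled an annotated end, with 706 bases inside the gene and 67 beyond it. Its density of 25.9 reads per kb was the highest of the 4 peaks, the others standing at 20 reads per kb and the median of all peaks at 21. Ret was the only receptor gene with a peak of at least 20 reads, and 34.0% of all peaks held more.

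The peaks were 500 to 773 bp wide and lay on both sides of the median of 643 bp over all peaks. Both Ngfr peaks were narrower than this median, and the Gfra3 and Ret peaks were wider. The Gfra3 and Ret peaks straddled a gene end, while both Ngfr peaks lay wholly inside the gene and held fewer reads each. Ngfr, Gfra3 and Ret each had a peak within 2 kb of an annotated gene end, a count chosen after seeing the data. These were 3 of 8 receptor genes (8.52 to 75.5%), an interval that takes in the 8.59% of all protein-coding genes. The tables used give a start site for 4 of the receptor genes, and of these Ngfr alone had a peak within 2 kb of it, against 7.31% of the 17492 protein-coding genes with a listed start. For Gfra3 and Ret no strand was given, so whether the marked end is the 5′ end was not determined here. Over the 4 peaks the receptors held 55 reads.

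**Figure D2:**
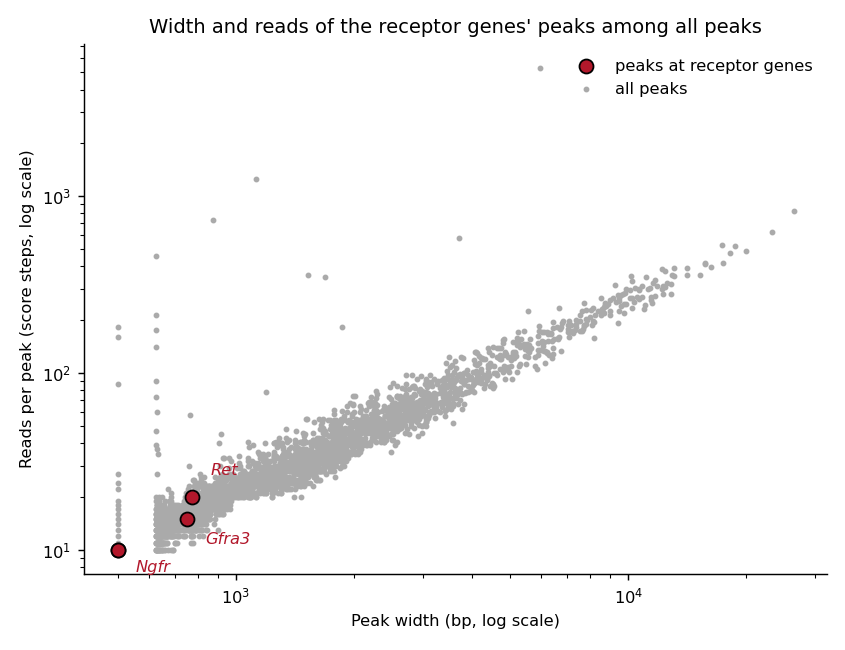
Reads per peak (y axis, log scale) against peak width in bp (x axis, log scale). Red points are the 4 peaks of the receptor genes, with the 2 Ngfr peaks on top of each other at 500 bp and 10 reads, and grey points are all 6018 peaks. The red points lie between 500 and 773 bp, on both sides of the median width of 643 bp, and between 10 and 20 reads.

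Per length of sequence, the receptors' peak density did not differ from that of the genome beyond counting error. Their windows together spanned 1.30 Mb and held 3.08 peaks per Mb (exact 95% Poisson interval 0.840 to 7.89), against 2.23 per Mb over the annotated genome. Peaks covered 0.194% of these windows, against 0.282% of the annotated genome. Absence from the list does not show absence of the mark, because no peak of fewer than 10 reads was listed.

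**Figure D3:**
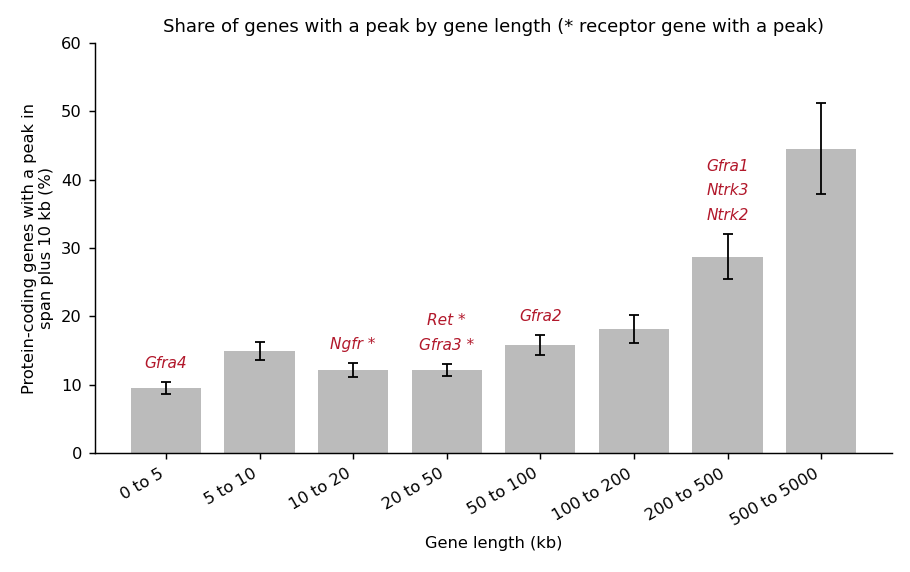
Share of protein-coding genes with a peak in the gene or its 10 kb flanks (y axis, %) by class of gene length in kb (x axis), with exact 95% binomial intervals. Red names show the class of each receptor gene, and an asterisk marks those with a peak. The share was 28.7% among genes of 200 to 500 kb, the class of Ntrk2, Ntrk3 and Gfra1, none of which had a peak.

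Distance to the nearest peak set 4 of the receptor genes without a peak beyond 200 kb from any peak, namely Ntrk2, Ntrk3, Gfra1 and Gfra2. Such distances were ordinary in this sparse list. The median over all protein-coding genes was 205 kb, and 50.6% of genes lay beyond 200 kb. At least as far as Gfra1 lay 23.9% of genes, as Ntrk2 37.9%, as Ntrk3 43.5% and as Gfra2 45.9%.

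**Figure D4:**
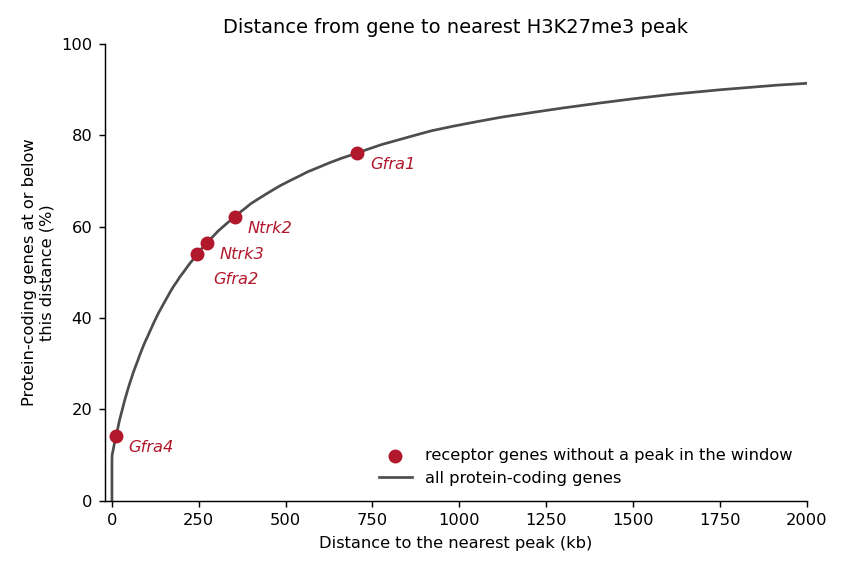
Cumulative share of protein-coding genes (y axis, %) by distance to the nearest peak in kb (x axis, cut at 2000 kb). Red points place the receptor genes without a peak in their window. Gfra4 sits at 11.4 kb and the others between 246 and 706 kb, where the median of all genes is 205 kb.

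Equal CpG counts were found in a receptor promoter with a nearby peak and in one without. The windows of 300 bases (250 before and 50 after the start) of Ngfr and of Ntrk2 each held 23 CpG, more than 71.0% of the 21263 promoter windows of protein-coding genes. Ngfr had a peak 880 bp from its start, and the nearest to Ntrk2 lay at 353 kb. The Gfra1 window held 12 CpG, close to the median of 13, and the windows at the 2 listed Gfra4 starts held 2 and 6. The ratio of observed to expected CpG was 0.607 for Ngfr, 0.835 for Ntrk2, 0.549 for Gfra1, and 0.0868 and 0.291 for Gfra4, against a median of 0.567. Over all promoters, a peak within 2 kb was found at 1.74% of windows with 0 to 4 CpG, the class of the first Gfra4 start, and at 7.40% of those with 5 to 9, the class of the second. The share was 11.3% at 10 to 19 CpG, the class of Gfra1, 8.97% at 20 to 29, the class of Ngfr and Ntrk2, and 8.44% at 30 or more, so it did not climb steadily with CpG count. A CG was present in 95.4% of all windows, and counts are the same on both strands. None of the 5 windows listed for Ngfr, Ntrk2, Gfra1 and Gfra4 overlapped a peak, as 4.42% of all promoter windows did. The other receptor genes had no listed window, among them Gfra3 and Ret, whose peaks straddled a gene end.

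Peaks at the receptor genes held 55 reads in all, and those at their ligand genes held 500. Of the 8 receptor genes 3 had a peak, with at most 20 reads. Of the 7 ligand genes examined 5 did (71.4%, 29.0 to 96.3), with a median of 109 reads, against 13.7% of all protein-coding genes. The intervals of the receptor and ligand shares overlap, so the counts alone do not separate the lists. The reads do not separate the lists either, since Artn overlapped the receptors and Nrtn and Pspn had no peak. Bdnf, Ntf3, Ntf5 and Gdnf lay higher, with lower bounds of 87.7 reads or more, than Ngfr and Ret, whose upper bound was 30.9. These 4 ligands are named for their high reads, which were known when the lists were drawn up, so this is a description.

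Pairs of receptor and ligand differed in where a peak was listed. Ntrk2 had no peak, against 3 peaks with 109 reads (89.5 to 131) at Bdnf and 4 with 140 reads (118 to 165) at Ntf5, which encodes neurotrophin-4. Of the Ntf5 peaks 1 touched the gene itself, which without flanks held 51 reads (38.0 to 67.1), a count added after seeing the data. Peaks in its window also lay in those of Kcna7, Lhb and Ruvbl2. Ntrk3 had no peak, against a single peak of 4311 bp and 120 reads (99.5 to 143) at Ntf3, which encodes neurotrophin-3. Gfra1 had none, against 2 peaks with 107 reads (87.7 to 129) at Gdnf. In these pairs the ligand gene had a listed peak and the preferred receptor gene had none. Having none was the ordinary case, since 13.7% of all protein-coding genes had a peak.

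Other pairs did not follow that order. Gfra3 had 15 reads and its ligand gene Artn 24 (15.4 to 35.7), with intervals that overlap. Gfra2 and Gfra4 had no peak, and nor had Nrtn, which encodes neurturin, or Pspn, which encodes persephin. Artn shared its peak with the window of St3gal3.

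**Figure D5:**
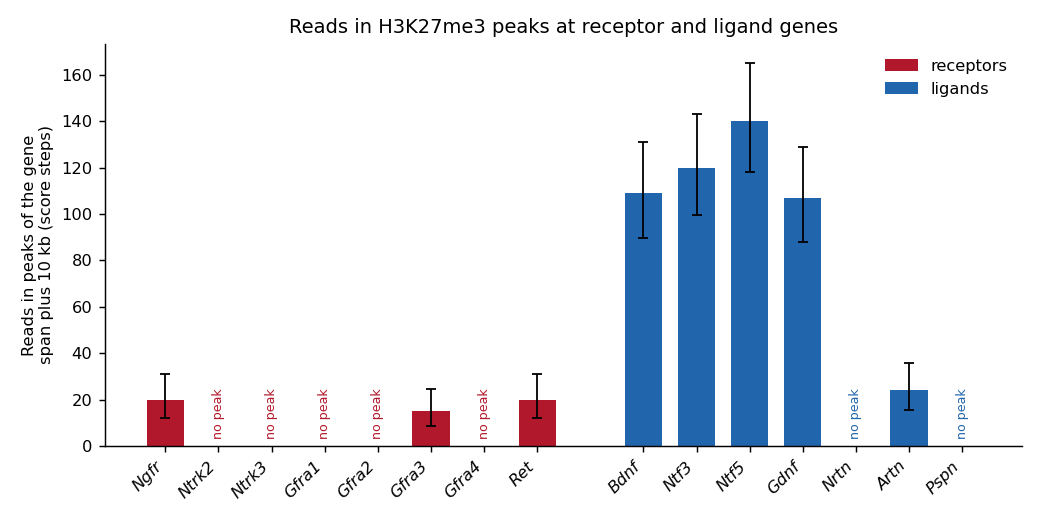
Reads in peaks of the gene plus 10 kb flanks (y axis) for the receptor genes (red) and their ligand genes (blue). Error bars are exact 95% Poisson intervals, which cover counting error only, and genes with no listed peak are marked so. Receptor genes reach 20 reads at most, and Bdnf, Ntf3, Ntf5 and Gdnf hold 107 to 140.

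Among other co-receptor and adaptor genes of these pathways, 10 of 29 matched genes had a peak (34.5%, 17.9 to 54.3). The share was 37.5% of the receptors and 13.7% of all protein-coding genes. Median gene length was 49.6 kb in this list and 17.2 kb over all protein-coding genes. Over all protein-coding genes, the share was 12.2% at 10 to 20 kb, 12.2% at 20 to 50 kb and 28.7% at 200 to 500 kb. Whether length bears on the share of this list was not tested. Lingo1, a p75NTR-associated membrane protein, had 80 reads in 4 peaks. Of the sortilin family, Sorcs3 had 45 reads, and Sort1 and Sorcs1 had 10 each, the level of a single Ngfr peak. Ncam1, which encodes a cell adhesion molecule that can also act as a GDNF receptor, had 14 reads. Among signalling adaptors, Plcg1 had 84 reads in 7 peaks, Shc3 45, Shc2 30 (both peaks outside the gene), Sh2b2 18 and Dok6 13.

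The receptor set holds 3 tyrosine kinase genes, Ntrk2, Ntrk3 and Ret, of which Ret had a peak. Of 54 other receptor tyrosine kinase genes examined, 25 did (46.3%, 32.6 to 60.4), with a median of 38 reads. Of all protein-coding genes, 13.7% did. Median gene length was 61.3 kb among the other kinases and 17.2 kb over all protein-coding genes, and whether length bears on their share was not tested. All 3 receptor genes with a peak had 20 reads or fewer, as did 41.1% of all protein-coding genes with a peak. Of the 25 other kinase genes with a peak, 17 had more than 20 reads. The other kinase genes with the most reads were Insrr (138), Epha8 (134), Flt1 (124), Fgfr2 (90) and Pdgfra (85). Peaks touching the gene itself held 107, 76, 124, 70 and 51 of these reads, in the same order. Nearest to the 20 reads of Ngfr and Ret were Aatk with 21 and Pdgfrb with 18 reads, followed at an equal gap by Egfr and Epha2 with 16 and Ltk with 24. The peaks of Aatk, Pdgfrb and Epha2 lay outside the gene, in its flanks, unlike those of Ngfr and Ret. No likeness of pattern could be measured beyond this, since there is 1 library.

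Marker genes of the nerve's cell types gave a scale for these low values. Of 12 Schwann cell markers 5 had a peak (15.2 to 72.3%), with 10 to 22 reads, a range that takes in Ngfr, Gfra3 and Ret. Peaks were found at 1 of 7 fibroblast and perineurial markers (0.361 to 57.9%), namely Pdgfra with 85 reads. The same held for 1 of 6 endothelial and mural markers (0.421 to 64.1%), Rgs5 with 12 reads, and 0 of 5 macrophage markers (up to 52.2%). These wide intervals take in the 13.7% of all protein-coding genes, and the Schwann cell interval lies above it. Differences between the cell types were not tested. Of 5 neuronal markers 4 had a peak (28.4 to 99.5%, also above 13.7%), with 12 to 269 reads. Median length of the neuronal markers was 148 kb, but Slc17a7, the one with the most reads (269), is 12.2 kb long. The part of each cell type in the receptor peaks was not tested.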

How the data were processed

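H3K27me3 ChIP and input libraries of mouse sciatic nerve were sequenced. Chromatin was crosslinked in 1% formaldehyde and sonicated to an average of 0.5 to 2 kb, per the labels' protocols. Bowtie and mm10 are named in the submitters' processing notes. How peaks were called, and whether the input was subtracted, was not given in the sources used here. A deposited list holds 6018 peaks of the ChIP library, each with a score from the authors' processing whose meaning is not stated. Scores came in steps of 2.57349 (99.92% of them matched, within 0.05), and dividing by the step gave the reads used here. This reading is an inference from the values. The peaks then held 185225 reads, with a median of 14. Total sequencing depth is unknown, and reads without molecular identifiers are not independent molecules.

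Genes and promoters came from RefSeq tables of GRCm38.p6. A gene was counted when a peak overlapped it or its 10 kb flanks by at least 1 bp, and reads are those of whole peaks. The tables give no exons, and for 4 receptor genes no strand. Calls were tested on simulated data with planted peaks (200 planted, 100% recovered among 21887 genes). No test between groups was possible. Peak sequences and the planned protein comparison were not analysed here. The receptor genes and lists were chosen with earlier results of these data known. Some genes of these pathways are not reported here and were left out of the lists. Named genes are all receptors, all listed ligands, every pathway gene with a peak, the 5 other kinases with the most reads and the 3 nearest in reads to the top receptor, with ties kept. Adam33, as an annotated neighbour, was named after its value was seen. Alternatives varied the flanks, the start window, the peak threshold and the overlap. Python 3.11.15, numpy 2.4.6, pandas 2.3.3, scipy 1.17.1 and matplotlib 3.10.9 were used.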

Additional observations from a re-analysis of the deposited data

How the results depend on the processing

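The count of 3 receptor genes with a peak was 3 with flanks of 0, 2 or 5 kb and with at least 50% of the peak in the window, 4 with flanks of 50 kb, which add Gfra4, and 2 with peaks at or above the median score, which drop Ngfr. With peaks of at least 20 reads it was 1 (Ret). Their 55 reads became 78 with flanks of 50 kb, 35 with peaks at or above the median score and 20 with peaks of at least 20 reads. Ngfr, the 1 gene of 4 with a peak near its start site, had none under either stricter threshold, so that count was 0 in both. The share of all protein-coding genes with a peak, 13.7%, was 9.77%, 10.5%, 11.7% and 25.5% with flanks of 0, 2, 5 and 50 kb, 8.92% with peaks at or above the median score and 6.77% with peaks of at least 20 reads. These changes follow from fewer or more peaks being counted. Counting either annotated end in place of the start, which gave 3 of 8, was chosen after seeing the data. Of 24 values of Ngfr, Gfra3 and Ret under alternatives, 21 stayed within their counting intervals and 3 became 0. Those were Ngfr under both stricter thresholds and Gfra3 with peaks of at least 20 reads. Narrower flanks and the overlap settings could not change any value, since every peak touched its gene and lay wholly in the window. Only the stricter thresholds could lower a value, so the 21 are no measure of stability. Among the ligands, Ntf5 had 140 reads with its flanks and 51 without, an alternative added after seeing the data. No paired analysis was possible because there is 1 ChIP library and the input has no values in the peak list. A listed peak of 10 reads has a counting interval of 4.80 to 18.4 reads, which limits every statement on Ngfr.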

Other observations

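Within 50 kb of the receptor genes, 36 other annotated genes lie, 19 of them long non-coding RNA genes. A peak touched 1 of the 36, the protein-coding gene Adam33 beside Gfra4, and 0 of the 19 long non-coding RNA genes. Of all protein-coding genes, 9.77% were touched by a peak. That share was not computed for all long non-coding RNA genes, so these low counts are not read as a trait of the neighbours. Around the receptor genes without a peak stand 17 of these 19, among them Gm53063, Gm34307 and Gm40968 near Ntrk2, Gm39038 near Ntrk3 and Gm41876 near Gfra1, named after their values were seen. The receptor genes without a peak also take up most of the sequence, 1.14 of the 1.30 Mb of windows with 10 kb flanks.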
